A study of Mus musculus with 12 samples.

Results

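Sugar handling in the small intestine was followed here through 9 genes: the sugar transporters Slc5a1, Slc2a2 and Slc2a5, the fructose enzymes Khk and Tkfc, and the gluconeogenic genes Pcx, Pck1, Fbp1 and Slc37a4. They were picked by gene symbol, and each was found once among the 32587 rows of the expression tables. Pcx was on the list because it had been seen to rise with every acid, so its difference from the control is described below and not tested. The direction of sugar metabolism genes under DCA had also been seen in these data beforehand, so the counts below are not independent evidence of a direction. Of the 9 genes, 8 reached 1 TPM (a length-scaled share of the library's transcripts) in at least 3 libraries and entered the test with 11952 rows in all. Pck1 did not.

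The libraries came from mouse small intestinal organoids, cultures of intestinal epithelium grown in a gel, with duodenum given as the tissue and WT as the genotype of all groups. All were maintained in IntestiCult organoid growth medium and cultured for 2 days before treatment. The 4 groups of 3 libraries received DMSO (the solvent control) or a bile acid labelled CA, CDCA or DCA, the usual abbreviations of cholic, chenodeoxycholic and deoxycholic acid. The labels give the dose of each acid as 50 mmol/L and the exposure as 2 days in 1 field and 96 hours in another. The unit of that dose is doubtful, and neither the dose nor the exposure time could be settled from the tables. CDCA is CA without the hydroxyl group on the C ring, and DCA is CA without the hydroxyl group on the B ring. Nothing in the labels ties a replicate to its own culture or mouse, and the p-values below therefore measure only the spread between these libraries, which may be technical.

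Dietary glucose enters the enterocyte, the absorptive cell of the intestine, through SGLT1 (Slc5a1), and fructose through GLUT5 (Slc2a5). Both leave towards the blood through GLUT2 (Slc2a2). Inside the cell, ketohexokinase (Khk) phosphorylates fructose, the product is split, and triokinase (Tkfc) phosphorylates the glyceraldehyde released. Gluconeogenesis runs the other way: pyruvate carboxylase (Pcx), a biotin enzyme of mitochondria, makes oxaloacetate, phosphoenolpyruvate carboxykinase (Pck1 in the cytosol, Pck2 in mitochondria) converts it, fructose bisphosphatase (Fbp1) removes a phosphate, and the transporter Slc37a4 feeds glucose 6-phosphate to glucose 6-phosphatase in the endoplasmic reticulum.

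Promoter windows, from 250 bases before to 50 bases after an annotated start, were found for all 9 genes in RefSeq (GRCm38.p6, a different build from that of the expression tables), 12 windows in all. They were searched on both strands for 6 motifs, and 4 windows are printed: both of Pcx, the member listed for its rise with every acid, and those of Khk and Slc5a1, because they hold the same E-box letters as Pcx. They read 5′ to 3′ on the plus strand, and capitals mark every motif match.
Pcx window 1, chr19:4510222-4510521: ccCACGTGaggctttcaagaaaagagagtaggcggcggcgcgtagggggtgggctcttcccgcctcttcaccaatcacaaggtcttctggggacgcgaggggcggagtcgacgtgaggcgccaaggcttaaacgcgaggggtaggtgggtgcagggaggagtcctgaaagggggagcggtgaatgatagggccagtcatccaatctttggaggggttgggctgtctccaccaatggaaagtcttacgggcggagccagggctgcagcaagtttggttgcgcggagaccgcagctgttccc
Pcx window 2, chr19:4594069-4594368: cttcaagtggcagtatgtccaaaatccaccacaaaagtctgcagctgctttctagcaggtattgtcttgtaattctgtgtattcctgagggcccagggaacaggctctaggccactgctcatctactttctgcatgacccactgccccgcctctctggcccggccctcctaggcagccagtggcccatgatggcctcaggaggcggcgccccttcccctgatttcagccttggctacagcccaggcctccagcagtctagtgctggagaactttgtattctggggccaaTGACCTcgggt
Khk, chr5:30921309-30921608: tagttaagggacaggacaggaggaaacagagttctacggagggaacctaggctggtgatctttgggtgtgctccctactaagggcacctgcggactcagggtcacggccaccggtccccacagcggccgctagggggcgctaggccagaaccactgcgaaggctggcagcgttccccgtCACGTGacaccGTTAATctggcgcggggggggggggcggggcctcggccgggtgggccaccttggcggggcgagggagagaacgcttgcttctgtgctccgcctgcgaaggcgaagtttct
Slc5a1, chr5:33103969-33104268: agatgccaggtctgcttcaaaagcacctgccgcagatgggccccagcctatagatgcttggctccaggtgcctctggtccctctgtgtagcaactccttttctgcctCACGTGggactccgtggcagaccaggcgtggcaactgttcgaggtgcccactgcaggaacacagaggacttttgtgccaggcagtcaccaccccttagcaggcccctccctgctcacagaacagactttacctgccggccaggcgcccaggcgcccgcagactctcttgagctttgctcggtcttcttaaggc
The E-box CACGTG reads the same on both strands and is bound by several transcription factors. It lay 248 bases before the start in Pcx window 1, 71 bases before in Khk and 143 bases before in Slc5a1. It was in 3 of the 12 member windows and in 7.15% of all 32851 windows. AGGTCA, the core letters of many nuclear receptor sites, lay 39 bases after the start of Pcx window 2, on the minus strand, 21 bases before that of Slc2a2 and 127 bases before that of Slc37a4. These were 3 of the 12 member windows, against 16.3% of all windows. Of the 12, only Pcx window 2 had a start whose following bases were not found in a GENCODE transcript of its gene. GTTAAT (letters of HNF1 sites) was in the windows of Khk, where it is the second run of capitals, and Pck1, and in 7.1% of all windows. AGATAA, bound by GATA factors, was in Fbp1 and Pck1 and in 11.2% of all, TTTATNG, bound by CDX factors, in Slc37a4 and Pck1 and in 10.9% of all, and TATAAA, the TATA box, in Slc37a4, where it overlaps the CDX match, and in 13.6% of all. A match is a string of letters and was not tested as a binding site.

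TPM values are scaled for transcript length, so levels can be set beside each other across genes. In the DMSO libraries Khk and Tkfc stood highest, at 273.4 ± 57.6 and 270.1 ± 34.7 TPM (mean ± SD, n = 3 libraries, as throughout), with overlapping ranges. Slc5a1 came next at 188.8 ± 38.6 TPM, then Slc37a4 at 61.1 ± 10.8, Fbp1 at 37.6 ± 10.02 and Slc2a2 at 25.2 ± 11.4. The last pair overlapped. Slc2a5 at 9.11 ± 3.94 TPM, Pcx at 3.43 ± 0.370 and Pck1 at 0.323 ± 0.157 made up the low end, each clear of its neighbours. Khk was thus above 97.1% of the tested rows and Pcx above 16.5%.

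**Figure D1:**
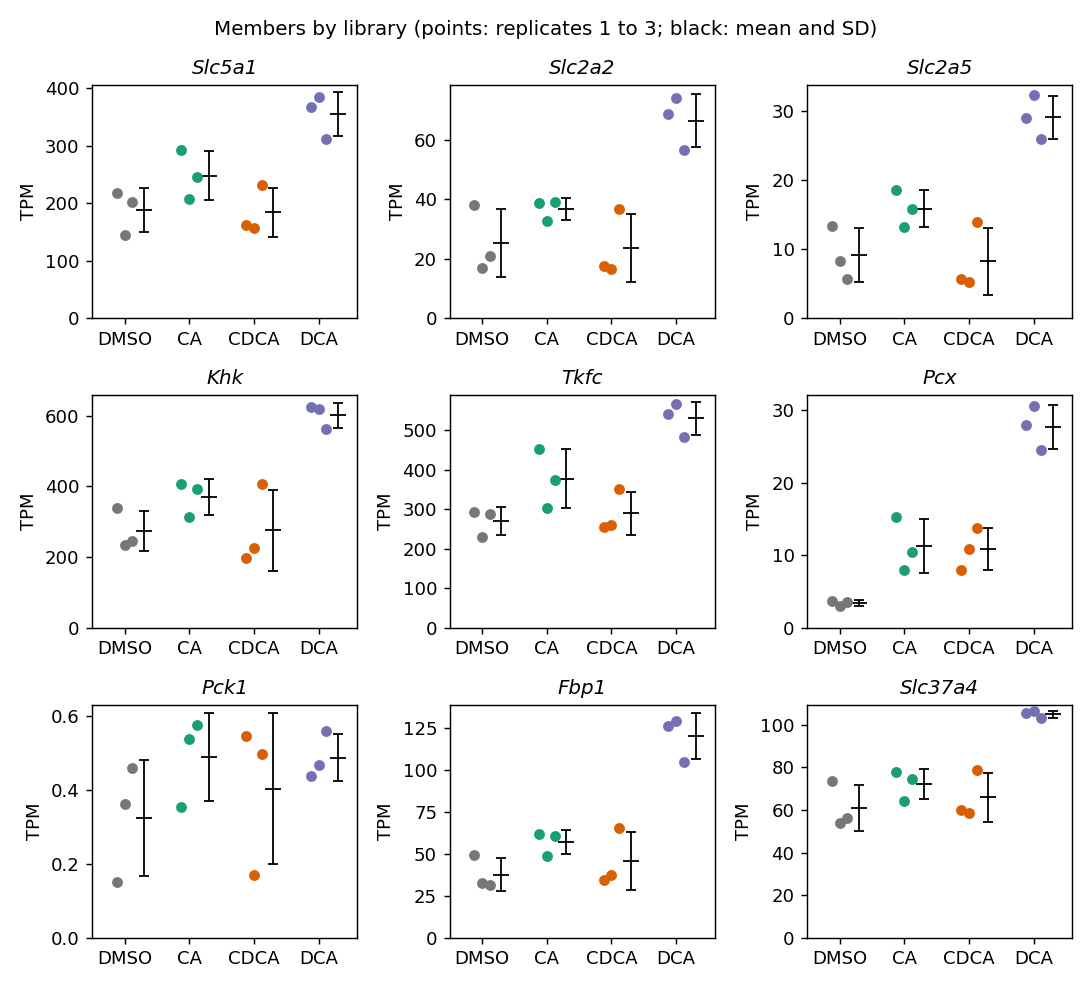
TPM of the 9 genes in each library (points, replicates 1 to 3 from left to right), with the group mean and SD in black beside them. Each vertical axis starts at 0. The DCA libraries lie above all other libraries for every gene but Pck1, whose values stay between 0.151 and 0.575 TPM. CDCA replicate 3 lies above CDCA replicates 1 and 2 in every panel except that of Pck1.

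Of the 7 tested members other than Pcx, all rose in DCA against DMSO, where 18.8% of all tested rows rose. Of the same 7, 0 passed in CA (0.569% of all rows called higher) or in CDCA against DMSO (0.51%). Under DCA the largest of the 7 differences were in Fbp1 and Slc2a5 and the smallest in Slc37a4. All 8 tested members passed as higher in DCA than in CDCA (12.8% of all rows). All 8 also had their DCA libraries above their CA libraries (16.9% of all rows), and 4 of these differences passed (5.79% of all rows). The count of 4 ran from 1, Pcx alone, to 8 as single libraries were left out. These counts between acids include Pcx, whose values in the acid libraries had been seen when it was listed. Its calls there are not independent evidence.

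Slc5a1, the sodium-coupled glucose and galactose carrier, was at 218.7, 145.2 and 202.3 TPM in DMSO replicates 1 to 3, at 291.9, 206.7 and 246.1 in CA, at 161.8, 157.7 and 232.2 in CDCA and at 367.7, 385.6 and 311.7 in DCA. All DCA libraries were above all others, while DMSO overlapped with CA and with CDCA. Against DMSO, DCA differed by 0.92 on the log2(TPM + 1) scale (SE 0.18, 95% interval 0.53 to 1.32, limma adjusted p = 0.00195). Differences below are on that scale.

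Slc2a5, the fructose carrier of the brush border, was the least abundant of the 3 transporters. It was at 13.4, 8.29 and 5.64 TPM in DMSO, at 18.6, 13.2 and 15.8 in CA, at 5.60, 5.16 and 13.9 in CDCA and at 28.9, 32.4 and 26.0 in DCA. Only DCA cleared the DMSO libraries, by 1.64 (SE 0.33, interval 0.93 to 2.36, limma adjusted p = 0.00230). DMSO replicate 1 and CDCA replicate 3 were each the highest of their group.

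Slc2a2, the basolateral exit carrier, was at 38.1, 16.8 and 20.8 TPM in DMSO, at 38.6, 32.6 and 39.0 in CA, at 17.5, 16.3 and 36.8 in CDCA and at 68.7, 73.9 and 56.6 in DCA. Here too DMSO replicate 1 and CDCA replicate 3 stood above the rest of their groups and reached the CA range. DCA rose over DMSO by 1.44 (SE 0.31, interval 0.75 to 2.12, limma adjusted p = 0.00396). The ratio of Slc5a1 to Slc2a5 was 12.2 ± 0.439 in DCA, 15.7 ± 0.0538 in CA, 25.4 ± 7.55 in CDCA and 23.2 ± 10.95 in DMSO. The wide spread in DMSO came from replicate 3, at 35.9 against 16.3 and 17.5. These ratios were not tested.

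Khk, which phosphorylates fructose, was at 339.7, 235.0 and 245.6 TPM in DMSO, at 405.9, 312.8 and 392.2 in CA, at 196.4, 224.9 and 406.7 in CDCA and at 623.5, 617.3 and 560.7 in DCA. The CDCA libraries ran from below all DMSO libraries to above them. In DCA all 3 were above every other library, with a rise over DMSO of 1.15 (SE 0.23, interval 0.64 to 1.66, limma adjusted p = 0.00259).

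Tkfc, which acts on fructose-derived glyceraldehyde, was at 293.4, 230.2 and 286.6 TPM in DMSO, at 452.5, 303.3 and 374.5 in CA, at 255.9, 259.8 and 351.3 in CDCA and at 541.4, 564.6 and 482.4 in DCA. It was the 1 gene of the 7 whose CA libraries were all above the DMSO libraries, but its CA difference of 0.47 did not pass (interval 0.13 to 0.80, limma adjusted p = 0.189). In DCA it rose by 0.97 (SE 0.15, interval 0.64 to 1.31, limma adjusted p = 0.000481). The ratio of Khk to Tkfc stayed near 1: 1.01 ± 0.151 in DMSO, 0.992 ± 0.0824 in CA, 0.930 ± 0.203 in CDCA and 1.14 ± 0.0371 in DCA.

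Pcx, which supplies oxaloacetate from pyruvate, was at 3.73, 3.02 and 3.54 TPM in DMSO, the narrowest DMSO spread of the 9 genes (SD 10.8% of the mean). It was at 15.3, 7.98 and 10.5 TPM in CA, at 7.99, 10.9 and 13.8 in CDCA and at 28.0, 30.5 and 24.4 in DCA. Every library with an acid was above every DMSO library, and the DCA libraries were above the other acids. Its differences from DMSO, which chose it, were 1.43 in CA, 1.40 in CDCA and 2.69 in DCA, and are given as a description. By the ratio of mean TPM these are 3.28, 3.18 and 8.06 times the DMSO level.

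Pck1, the cytosolic carboxykinase, was at 0.151, 0.362 and 0.457 TPM in DMSO, at 0.354, 0.536 and 0.575 in CA, at 0.544, 0.169 and 0.495 in CDCA and at 0.437, 0.465 and 0.557 in DCA. It was under 1 TPM in all 12 libraries, the groups overlapped, and it was not tested. Its mitochondrial counterpart Pck2, outside the 9, was at 89.0 ± 7.35 TPM in DMSO and 68.5 ± 1.60 in DCA, where it fell by 0.37 (SE 0.09, limma adjusted p = 0.00816). Pck2 exceeded Pck1 by 122 to 601 times in single libraries. That ratio is imprecise because Pck1 was near 0, and it ran from 171 to 601 within CDCA alone. The ratio of Pck2 to Pcx was 26.3 ± 4.82 in DMSO, 8.19 ± 2.78 in CA, 9.57 ± 3.55 in CDCA and 2.49 ± 0.256 in DCA. It contains Pcx and so repeats the difference that chose that gene.

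Fbp1, which removes a phosphate from fructose 1,6-bisphosphate, was at 49.2, 32.5 and 31.2 TPM in DMSO, at 61.7, 48.9 and 60.4 in CA, at 34.3, 37.3 and 65.5 in CDCA and at 126.5, 129.3 and 104.7 in DCA. The lowest CA library lay just under DMSO replicate 1. In DCA it rose over DMSO by 1.67 (SE 0.23, interval 1.18 to 2.17, limma adjusted p = 0.000222). The paralog Fbp2 was more abundant in all groups, with a ratio of Fbp2 to Fbp1 of 3.46 ± 0.771 in DMSO and 1.67 ± 0.112 in DCA.

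Slc37a4, the glucose 6-phosphate carrier of the endoplasmic reticulum, was at 73.5, 53.8 and 56.0 TPM in DMSO, at 77.9, 64.1 and 74.3 in CA, at 60.0, 58.7 and 78.9 in CDCA and at 105.5, 106.4 and 103.1 in DCA. The DCA libraries were close together and above all others. The rise over DMSO was 0.78 (SE 0.13, interval 0.50 to 1.07, limma adjusted p = 0.000712), the smallest of the 7. G6pc, the catalytic subunit it serves, was far lower, at 2.30, 1.24 and 2.95 TPM in DMSO and 10.5, 12.2 and 7.74 in DCA. Its rise of 1.84 (SE 0.30, limma adjusted p = 0.000575) brought the ratio of Slc37a4 to G6pc from 31.4 ± 12.2 in DMSO to 10.7 ± 2.36 in DCA.

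Read over the 7 members together, DCA against DMSO gave 7 rises and 7 genes whose 3 DCA libraries were all above the 3 DMSO libraries, with a median difference of 1.15 against -0.021 over all tested rows. Of all tested rows 18.8% rose, 19.2% fell and 24.2% had all DCA libraries above all DMSO libraries. The 7 calls held in each of the 20 other settings and reduced sample sets tried. Leaving out a single CA or CDCA library cannot move these estimates. It alters only the estimate of spread that the groups share. For CA against DMSO, 0 of 7 passed with limma, against 0.569% of all rows called higher. At an unadjusted p under 0.05 were 4 of the 7, and 1763 of all 11952 tested rows in either direction. The estimates were all above 0, from 0.24 in Slc37a4 to 0.80 in Slc2a5, with adjusted p from 0.189 to 0.420. Tkfc alone did not overlap, where 11.8% of all rows had every CA library above every DMSO library.

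For CDCA against DMSO, 0 of 7 passed with limma, against 0.51% of all rows called higher. At an unadjusted p under 0.05 were 0 of the 7, and 1168 of all 11952 tested rows in either direction. The estimates ran from -0.18 in Slc2a5 to 0.24 in Fbp1, with adjusted p from 0.835 to 0.986. None of the 7 had all CDCA libraries above the DMSO libraries, which 6.97% of all rows did. The widest interval was that of Slc2a5, from -0.90 to 0.53, and the narrowest that of Slc37a4, from -0.18 to 0.39. Their signs rested on single libraries: without CDCA replicate 3 all 7 were below 0, from -0.59 to -0.028, and without DMSO replicate 1, CDCA replicate 1 or CDCA replicate 2 several of those below 0 came out above it. These 3 comparisons share the DMSO libraries.

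**Figure D2:**
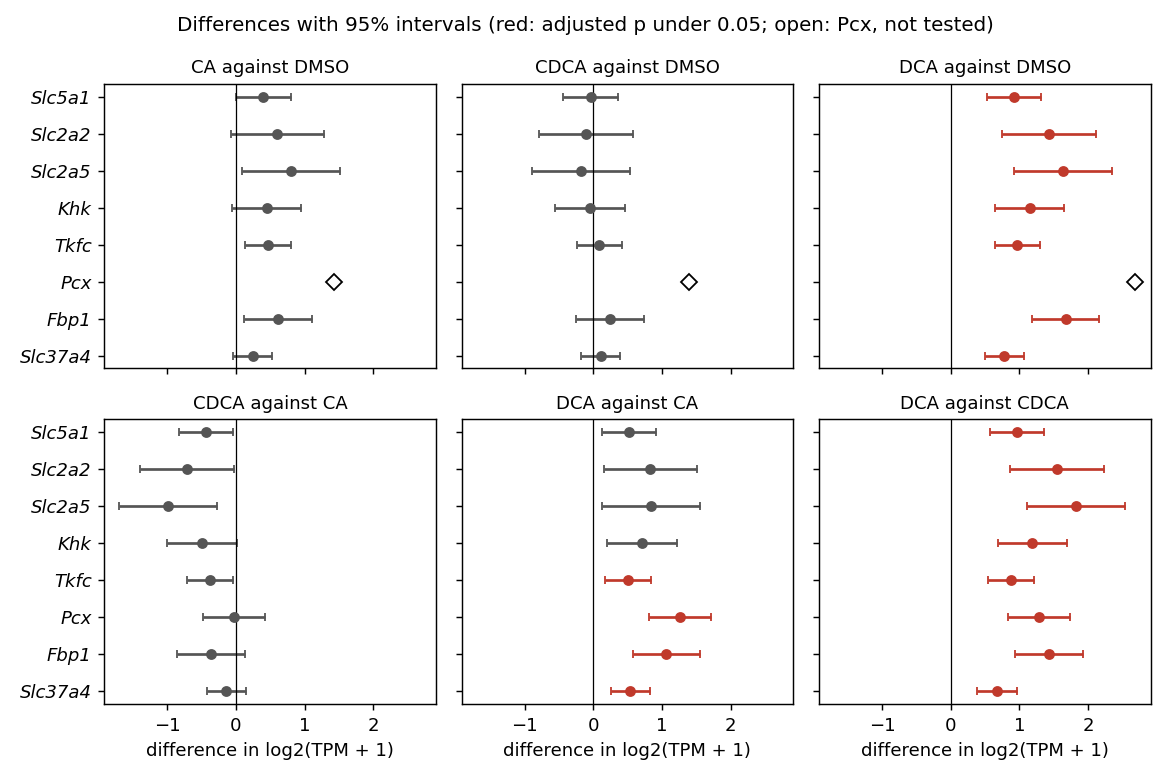
Differences in log2(TPM + 1) of the 8 tested genes in the 6 comparisons, with limma's 95% intervals. Red marks an adjusted p under 0.05, and open diamonds are the Pcx differences from DMSO, which are not tested. All points of the 3 comparisons of DCA lie above 0, while those of CDCA against CA lie below 0 with Pcx at -0.03.

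The 3 acids form 3 pairs, compared at 1 labelled dose and time. The values of Pcx in the acid libraries had been seen when it was listed, so its calls between acids are not independent evidence. DCA against CDCA, which carry the hydroxyl group on different rings, separated all 8 tested members. Pcx was higher in DCA by 1.29 (SE 0.21, interval 0.84 to 1.74, limma adjusted p = 0.00134) and Fbp1 by 1.43 (SE 0.23, limma adjusted p = 0.00134). The range over the 8 was 0.68 in Slc37a4 to 1.83 in Slc2a5, with adjusted p from 0.00134 to 0.00455. The 8 genes also had all DCA libraries above all CDCA libraries, as 21.3% of all rows did, and 12.8% of all rows were called higher.

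DCA against CA, which differ by the B ring hydroxyl group, gave 4 calls of 8, all higher in DCA, against 5.79% of all rows. Pcx differed by 1.26 (SE 0.21, interval 0.81 to 1.71, limma adjusted p = 0.00451), Fbp1 by 1.06 (adjusted p = 0.0114), Slc37a4 by 0.54 (adjusted p = 0.0202) and Tkfc by 0.51 (adjusted p = 0.0450). Slc5a1, Slc2a2, Slc2a5 and Khk had estimates of 0.52 to 0.84 and adjusted p of 0.0724, 0.0952, 0.105 and 0.0631. All 8 genes had their DCA libraries above their CA libraries, as did 16.9% of all rows. The count moved with single libraries. It was 1, Pcx alone, without CA replicate 2, DCA replicate 1 or DCA replicate 2, where 1.67 to 1.72% of all rows were called higher. It was 8 without CDCA replicate 3 (7.43% of all rows) or with only the 6 libraries compared (10.7%). Tkfc also lost its call without CA replicate 3, CDCA replicate 2 or DCA replicate 3, each of which left Pcx, Fbp1 and Slc37a4.

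CDCA against CA, which differ by the C ring hydroxyl group, gave 0 calls of 8 with limma, against 0.0251% of all rows called lower. At an unadjusted p under 0.05 were 4 of the 8, and 861 of all 11952 tested rows in either direction. All estimates were below 0, from -0.98 in Slc2a5 (interval -1.70 to -0.27, limma adjusted p = 0.559) to -0.03 in Pcx (interval -0.48 to 0.42, adjusted p = 0.987). No member had all CDCA libraries below all CA libraries, which 6.47% of all rows did. The Pcx interval leaves room for a difference of either sign.

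CDCA replicate 3 and DMSO replicate 1 had been seen to stand apart in these data, and they did so here. Of the 7 members 6 in CDCA replicate 3 were above every DMSO library, while none was in CDCA replicate 1 or 2. In CA, 7 were in replicates 1 and 3 and 1 in replicate 2, and in DCA 7 were in each library. The median of the 7 differences from the DMSO mean was 0.33 in DMSO replicate 1, against -0.20 and -0.13 in replicates 2 and 3. Leaving out both, a pair picked because they stood apart, changed 3 of the 6 counts: 5 of 7 members passed in CA against DMSO and 4 of 8 were lower in CDCA than in CA. Calls rose over all rows too, to 5.17% higher in CA against DMSO and 2.87% lower in CDCA against CA. In CA against DMSO the 5 were Slc2a2 (0.93), Slc2a5 (1.09), Khk (0.61), Fbp1 (0.81) and Slc37a4 (0.38). The 4 lower in CDCA were Slc2a2 (-1.07), Slc2a5 (-1.39), Khk (-0.80) and Fbp1 (-0.65). DMSO replicate 1 was the highest DMSO library for each of the 7, and CDCA replicate 3 the highest CDCA library. Leaving them out could only widen the differences of CA from DMSO and of CDCA from CA. The calls gained are therefore not independent evidence. In the same set all 8 passed in DCA against CA (9.04% of all rows) and 0 of 7 in CDCA against DMSO (0.577%).

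**Figure D3:**
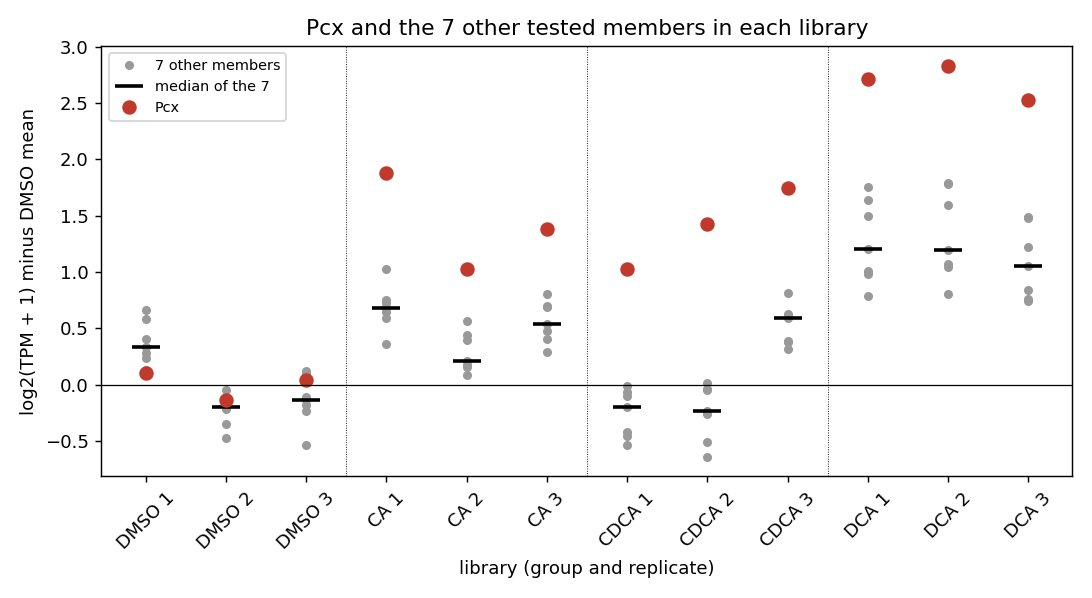
Difference of log2(TPM + 1) from the DMSO mean in each of the 12 libraries, for Pcx (red) and the 7 other tested members (grey, their median as a black bar). Pcx, listed for its rise with every acid, lies above the other 7 in every library with an acid. The medians of the 7 are below 0 in CDCA replicates 1 and 2 and at 0.59 in CDCA replicate 3.

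The distance of Pcx from the other 7 in single libraries contains the rise that chose it, and is given as a description. Pcx minus the median of the 7, both as differences from the DMSO mean, was -0.23 to 0.17 in the DMSO libraries. It was 1.20, 0.81 and 0.84 in CA, 1.23, 1.66 and 1.15 in CDCA and 1.51, 1.64 and 1.47 in DCA. In CDCA replicates 1 and 2 Pcx was at 1.03 and 1.43 while the 7 had medians of -0.20 and -0.24. Across the 12 libraries Pearson's r was 0.919 to 0.987 over the 21 pairs among the 7, and 0.751 to 0.886 between Pcx and each of the 7. With the group means taken out the ranges overlapped, at 0.669 to 0.978 among the 7 and 0.597 to 0.915 for Pcx. The libraries of a group share its mean, so these r are a description.

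The rows most like each member over the 12 libraries were taken by Pearson's r of log2(TPM + 1) among 10963 candidates. For Pcx, whose r includes the rise that chose it, they were H2-K2 (0.987) and Btnl2 (0.983), symbols of histocompatibility and butyrophilin-like families, and the aldo-keto reductase Akr1b7 (0.977). With the group means taken out, these 3 had r of 0.747 to 0.853. Akr1b7 was at 2.06 TPM in DMSO, 9.44 in CA, 8.76 in CDCA and 35.4 in DCA (group means). For Khk they were the bilirubin glucuronidating enzyme Ugt1a1 (0.995), Aoc1 (0.994) and Ces1d (0.992), and for Tkfc the glycerol 3-phosphate dehydrogenase Gpd1 (0.995), the microvillus protein villin Vil1 (0.995) and Agpat2 (0.993). Slc5a1 went with Gsta4 (0.995) and Net1 (0.990), and Slc2a2 with Ugt2a3 (0.992) and Otc (0.991). Slc2a5 went with Rdh7 (0.990), Acy3 (0.986) and the apolipoprotein Apoa1 (0.984), Fbp1 with H2-Q2 (0.998), Aldh1a7 (0.996) and Arg2 (0.995), and Slc37a4 with Dpyd (0.991), P4hb (0.991) and lactase, Lct (0.990). Reads of H2-K2, H2-Q2 and the Ugt and Ces genes can be shared with near-identical copies, so their levels are uncertain.

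The 7 members moved together with markers of the absorptive cell. Of 15 enterocyte markers 13 rose in DCA against DMSO (median 1.37), where 18.8% of all tested rows rose and 19.2% fell. The summed level of the 15 was 1896 to 3134 TPM in DMSO, 3063 to 4700 in CA, 2072 to 3335 in CDCA and 5680 to 7596 in DCA. All 10 stem cell markers and all 10 markers of dividing cells fell in DCA (medians -1.63 and -1.07). The summed stem cell markers were at 515.6 to 1068 TPM in DMSO and 158.4 to 183.2 in DCA, and the dividing cell markers at 770.5 to 1052 and 454.9 to 472.7. All 7 Paneth cell markers fell in DCA, as did 3 of 7 goblet cell, 5 of 8 enteroendocrine and all 4 tested tuft cell markers. In CA and in CDCA against DMSO, 0 of these 35 enterocyte, stem cell and dividing cell markers passed with limma. At an unadjusted p under 0.05 were 16 in CA and 4 in CDCA, where 1763 and 1168 of all 11952 tested rows were. The hormone genes Gcg and Gip, 2 of the 8 enteroendocrine markers, fell in CDCA against DMSO, where 10 of all 11952 tested rows fell. In CA against DMSO 0 of 7 goblet cell markers passed with limma, with a median difference of 0.29. Of the 7, 6 were at an unadjusted p under 0.05, where 1763 of all 11952 tested rows were. In bulk RNA, more cells of a type and more RNA per cell cannot be told apart, and the part of cell makeup in the member differences was not tested.

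Some markers of cell types outside the intestinal epithelium were detected. Proximal tubule markers, whose cells also make glucose, were each under 1 TPM in every library. Of 7 hepatocyte markers 4 were under 1 TPM throughout, and the sum of 58.4 to 83.6 TPM held Ttr, which reached 80.9 and was called lower in DCA against DMSO. The 9 mesenchymal markers summed to 3.65 to 6.43 TPM, with Vim up to 6.01 and called lower in DCA against DMSO, and Dcn and Lum at 0 in all libraries. The 5 endothelial markers summed to 2.31 to 3.58 TPM, with Lyve1 up to 3.32 and Cdh5 at 0 in all libraries. The 7 immune markers summed to 3.01 to 5.48 TPM, with Cd68 up to 4.04 and Itgam called higher in DCA against DMSO. The part of these cells in the member differences was not tested. Summed TPM per library was 889156 to 936841, with 11464 to 11711 rows at 1 TPM or more, and sequencing depth is unknown because the tables hold no counts. The mitochondrially encoded share of TPM was 17.2 ± 2.74% in DMSO, 14.0 ± 0.389% in CA, 15.9 ± 2.02% in CDCA and 11.8 ± 0.814% in DCA, and with these rows and 2 rRNA rows removed and the rest rescaled the 7 members kept their calls in DCA.

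Around the 9 genes, 113 further genes in 8 lists were read, of which 112 were found. In CDCA against DMSO 0 of the 98 tested passed with limma. An unadjusted p under 0.05 was found for 18 of them and for 1168 of all 11952 tested rows. In CA against DMSO 3 of the 98 passed as higher, where 0.569% of all rows did. Here 38 were at an unadjusted p under 0.05, as were 1763 of all 11952 rows. The 3 were Aldoa by 0.34 (SE 0.05, limma adjusted p = 0.0190), Pgk1 by 0.30 (SE 0.06, adjusted p = 0.0480) and Gapdh by 0.45 (SE 0.09, adjusted p = 0.0382). In the list of hexose phosphorylation and committed glycolysis 0 of 15 tested genes passed in CA. The counts that follow are for DCA against DMSO, where the shares of all rows are those given above.

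The hydrolases that release sugars at the brush border, Lct, Sis, Mgam and Treh, all rose (4 of 4, median 1.42). Lct and Sis are also among the enterocyte markers above, so their rises are counted in both lists. Lactase, Lct, was at 5.72, 1.70 and 2.15 TPM in DMSO and 16.8, 17.3 and 13.4 in DCA, a difference of 2.12 (SE 0.36, adjusted p = 0.000904). Trehalase, Treh, rose by 1.35 and Mgam, maltase-glucoamylase, by 0.65. Of 9 tested hexose and polyol transporters outside the members, 3 rose and 1 fell. Slc2a9, a urate and hexose carrier, rose by 0.84 (SE 0.17, adjusted p = 0.00178), Slc5a9, a sodium-coupled mannose and glucose carrier, by 0.83 (SE 0.19, adjusted p = 0.00390) and Slc2a1, the widespread glucose carrier GLUT1, by 0.35 (SE 0.08, adjusted p = 0.00376). The gene that fell was Slc5a10, and the other 9 transporters listed, among them Slc5a2 of the kidney, did not reach the filter.

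Of 10 other fructose, sorbitol and triose enzymes, 6 rose and 1, Akr1b3 (aldose reductase), fell (median 0.38). Gpd1, which links triose phosphates to glycerol, rose by 1.12 (SE 0.19) and the aldolases Aldoc and Aldoa by 1.06 (SE 0.12) and 0.63 (SE 0.05).

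Of 15 tested genes of gluconeogenesis and glucose release outside the members, 13 rose and Pck2 alone fell (median 0.56). Many of the 13 encode enzymes that also run in glycolysis, such as Gpi1 (0.92, SE 0.08), Gapdh (0.82, SE 0.09) and Pgk1 (0.62, SE 0.06). G6pc, in contrast, acts in glucose release, and Fbp2 in gluconeogenesis. Of 15 tested genes of hexose phosphorylation and committed glycolysis 10 rose and 1, the hexokinase Hk2, fell (median 0.41). Among them the hexokinase-like Hkdc1 rose by 1.09 (SE 0.14), the phosphofructokinase Pfkp by 0.88 (SE 0.11) and lactate dehydrogenase A, Ldha, by 0.54 (SE 0.06), with adjusted p from 7.63e-05 to 0.000134. Enzymes specific to either direction of the pathway were thus among the genes that rose.

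Around pyruvate, 16 of 20 genes rose and 3 fell (Pdk3, Pdp1 and Me3), with a median of 0.41. Malic enzyme 1, Me1, which makes pyruvate and NADPH from malate, rose from 8.73 ± 1.24 to 30.9 ± 4.54 TPM, by 1.71 (SE 0.14, adjusted p = 1.81e-05). The pyruvate dehydrogenase subunit Pdha1 and citrate synthase, Cs, each rose by 0.51 (SE 0.07). Of 8 tested genes of biotin, the cofactor of pyruvate carboxylase, 1 rose and 2 fell (median 0.0016), near the shares over all rows. Btd, which recycles biotin, rose by 0.76 (SE 0.16, adjusted p = 0.00287). The biotin-dependent carboxylase subunits Pcca and Mccc2 fell by 0.33 (SE 0.11, adjusted p = 0.0353) and 0.25 (SE 0.09, adjusted p = 0.0469), and the biotin transporter Slc5a6 was at 13.4 ± 2.71 TPM in DMSO and 11.1 ± 1.98 in DCA, with an adjusted p of 0.209.

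Of 17 tested regulators of sugar genes 11 rose and none fell (median 0.30). Mlxipl, which encodes the carbohydrate sensor ChREBP, was at 213.2, 286.6 and 373.0 TPM in DMSO and 414.6, 400.6 and 377.3 in DCA. This was a rise of 0.48 (SE 0.16, limma adjusted p = 0.0316). The coactivator Ppargc1a rose from 2.73 ± 0.465 to 6.15 ± 0.246 TPM, by 0.95 (SE 0.16, adjusted p = 0.000584), and the thyroid hormone receptor Thra by 0.44 (SE 0.08, adjusted p = 0.00163). Creb3l3, a membrane-bound transcription factor, rose by 1.24 in DCA (SE 0.33, adjusted p = 0.0111). Its CDCA libraries were at 9.29, 9.01 and 22.1 TPM against 23.1, 15.4 and 20.4 in DMSO, a difference of -0.61 that did not pass (SE 0.33, adjusted p = 0.635).

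**Figure D4:**
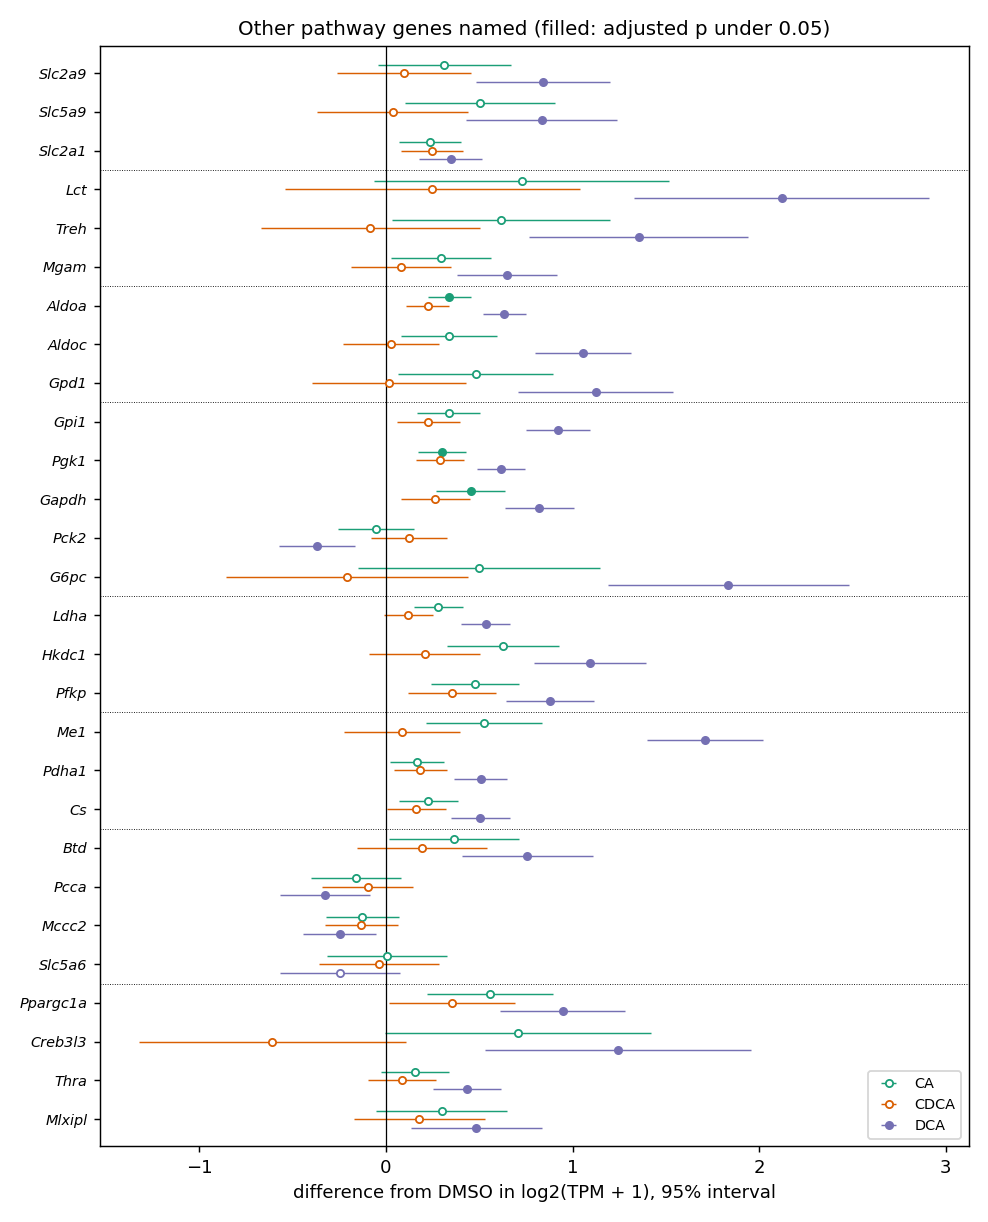
Differences from DMSO in log2(TPM + 1) of the other pathway genes named, for CA, CDCA and DCA, with limma's 95% intervals. Filled points have an adjusted p under 0.05, dotted lines part the 8 lists, and the 3 acids share the DMSO libraries. In DCA every point but that of Slc5a6 is filled, with Pck2, Pcca and Mccc2 below 0. In CA only Aldoa, Pgk1 and Gapdh are filled, and in CDCA none is.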

How the data were processed

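RNA was measured by poly(A) RNA-seq in 12 libraries, 3 in each of 4 groups taken from the titles. The authors deposited TPM values per gene, made with Salmon 1.8.0 on GRCm39 per the submitters' processing notes. Its gene models, strand option and step from transcripts to genes were not given in the sources used here. Without counts the depth is unknown. TPM shares 1 total, so a rise of abundant rows lowers the others.

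Values were taken as log2(TPM + 1). limma 3.58.1 in R 4.3.3 (trend and robust moderation, 4 group means) was fitted to the 11952 rows that reached 1 TPM in 3 or more libraries, with two-sided p-values adjusted by Benjamini-Hochberg within each of 6 comparisons and called at 0.05. The fit was tried on simulated independent normal values, which does not test the calls made in these data. The members and gene lists were chosen with earlier results of these data known. All members were named, as were the 3 genes of each list with the smallest F test p over the groups, Pck2, G6pc, Slc2a1, Slc5a6 and Mlxipl, and the 3 rows most like each member with a mean log2 value of at least 1. Some rows that these rules pick are not reported here. Genes named only in a count of 5 or fewer were chosen after their values were seen. No 2 libraries held identical values. The other settings tried were the scaling, filter, pseudocount, moderation, block, samples fitted and each library left out.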

Additional observations from a re-analysis of the deposited data

How the results depend on the processing

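Each comparison was recomputed under 20 alternatives, and DCA against DMSO and DCA against CDCA kept all 7 and 8 member calls in each. Leaving out a library of a group not compared alters only the shared estimate of spread, not the difference. With CDCA replicate 3 and DMSO replicate 1 left out together, CA against DMSO gave 5 calls in place of 0, CDCA against CA 4 in place of 0 and DCA against CA 8 in place of 4. That pair was picked because it stood apart, so the calls gained are not independent evidence. DCA against CA also gave 8 with only the 6 libraries compared, and 1 to 8 when single libraries were left out. The 1 was Pcx alone, and the calls of Pcx between acids are not independent evidence. No pairing by replicate number was seen: deviations of same-numbered libraries correlated at -0.378 to 0.109, and 2 of 12 libraries correlated best with their own number. Whether same-numbered libraries shared a culture or batch cannot be settled from deviations within groups of 3 libraries. With the replicate block the members called were 0 in CA against DMSO, 0 in CDCA against DMSO, 7 in DCA against DMSO, 0 in CDCA against CA, 3 in DCA against CA and 8 in DCA against CDCA. Leaving out single libraries turned the sign of uncalled estimates in CDCA against DMSO, which ran from -0.22 to 0.077 for Slc5a1, -0.47 to 0.22 for Slc2a2, -0.59 to 0.11 for Slc2a5, -0.36 to 0.17 for Khk, -0.058 to 0.17 for Tkfc, -0.041 to 0.45 for Fbp1 and -0.028 to 0.25 for Slc37a4. Pcx in CDCA against CA ran from -0.23 to 0.20. The cause was not tested. Removing mitochondrial and rRNA rows moved the median of all rows in DCA against DMSO from -0.021 to -0.11 and the split from 2245 higher and 2300 lower to 1898 and 3461, while the 7 members stayed higher by at least 0.69. In DCA against CDCA the split went from 1532 and 1790 to 1431 and 2786, and median-ratio scaling moved DCA against CA from 692 and 1069 to 1236 and 1290 and CDCA against DMSO from 61 and 10 to 60 and 28, and CA against DMSO from 68 and 1 to 27 and 2.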
